A study of Mus musculus with 6 samples.

Results

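The genes described here encode the enzymes, chaperones and export factors that turn newly made procollagen into crosslinked collagen fibrils, measured in mouse fibroblasts with a Delta9 version of Lmna, which encodes lamins A and C, and in wild-type (WT) fibroblasts of their siblings. The members are a list of 32 gene symbols, and 28 of them had at least 1 probe set annotated to that symbol alone, out of 18193 genes on the array. Each gene was read from its probe set with the highest mean over the 6 arrays. Of the 4 members not analysed here, Adamts2, Adamts14 and Fkbp10 had no such probe set, and Loxl2 was annotated only on 2 probe sets that also carry another symbol.

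Total RNA of 3 Delta9 and 3 WT samples was hybridised to 1 Affymetrix array each. All cells were primary fibroblasts of the mixed strain C57bl6X129S3/J at passage 3, deprived of serum for 72 hours before harvest, and no sample of either genotype was kept in serum. The labels call the cells adult, whereas the series text calls them post-natal; neither gives the animals' age, the sex, whether 1 or both copies of Lmna carried the allele, or how many animals the lines came from. The p-values therefore measure the spread between these samples, which may be technical. Lmna read 6.71 ± 0.52 in Delta9 and 8.67 ± 0.28 in WT (log2, SD, n = 3), with an adjusted p of 0.0899 in limma, but the part of the transcript that its probe set reads was not analysed here, so it does not check the labels. Of 14 fibroblast markers 13 were measured, with per-array means of 10.25 to 10.48 log2 in Delta9 and 10.61 to 10.77 in WT. Lower means in Delta9 were found in 12 of the 13, against 53.2% of all genes, with a median difference of -0.23. In limma 0 passed the adjusted threshold, and 2, Col1a1 and Dcn, were lower at an unadjusted p under 0.05, against 6.06% of all genes. Col1a1, Col1a2, Col3a1, Dcn and Lum are also in the collagen lists below, so this list is not separate from those. These markers thus differ between the groups in the same direction as most members, and their part in the results was not tested.

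Collagen chains are modified while they enter the endoplasmic reticulum. Prolyl 4-hydroxylases stabilise the triple helix, lysyl hydroxylases and galactosyltransferases prepare lysines for glycosylation and crosslinking, and the prolyl 3-hydroxylase complex, with collagen-specific chaperones and peptidyl-prolyl isomerases, controls folding. The folded procollagen is too long for ordinary transport vesicles and leaves with the help of dedicated export factors, after which proteases trim its propeptides and lysyl oxidases form the crosslinks that give fibrils their strength.

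The genes of this group had lower values in Delta9 than in WT for 25 of the 28 measured members, against 53.2% of all genes tested, and 0 members passed the adjusted p of 0.05 in limma, where 0.0605% of all genes did. The median difference over the members, Delta9 minus WT, was -0.25 on the log2 scale, against -0.01 over all genes. At an unadjusted p under 0.05, 4 members were lower (Crtap, P3h3, Fkbp14 and Pcolce), a share of 14.3% against 6.06% of all genes in that direction, and 0 were higher, against 4.54%. In 6 members every Delta9 value lay under every WT value, 21.4% of the members against 9.99% of all genes; the 6 were these 4 with Mia3 and Colgalt1. No member was separated in the other direction, against 7.27% of all genes. The differences ran from -0.66 for P3h3 to 0.55 for Tgm2. The members were read on the same 6 arrays, so their directions are not independent of each other.

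**Figure D1:**
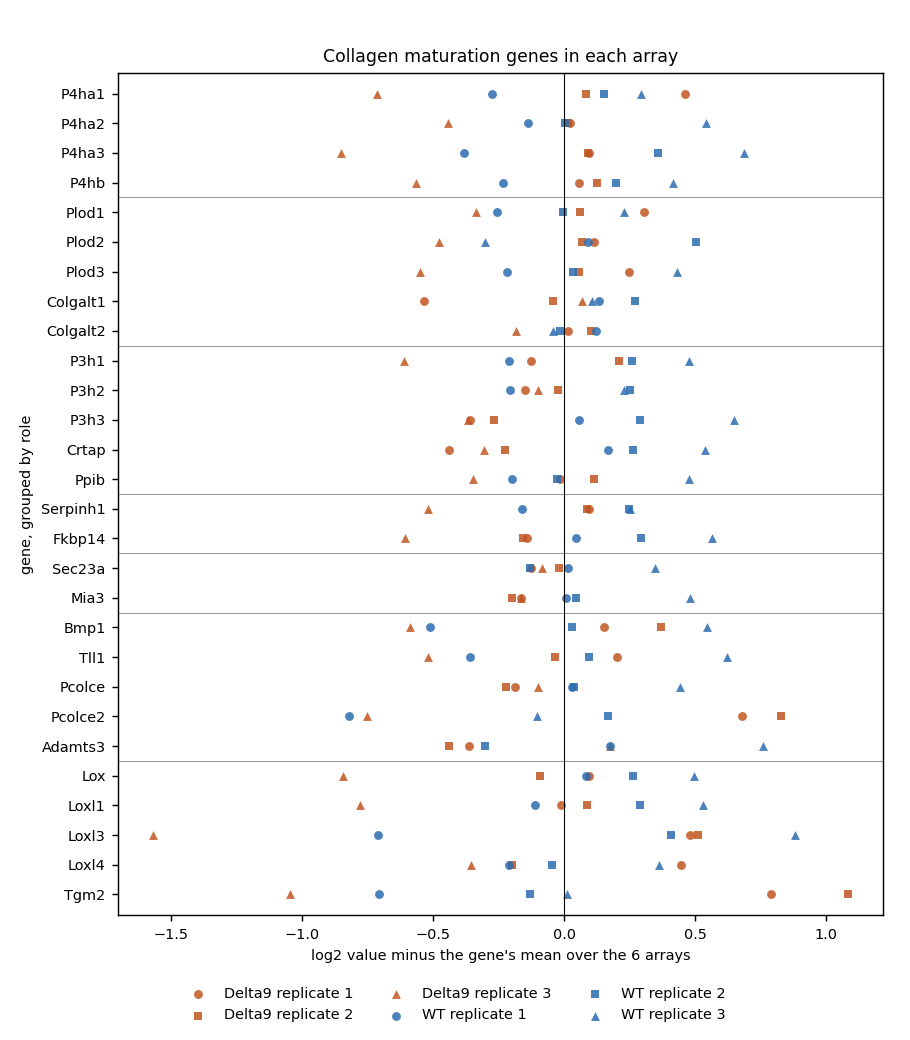
Values of the 28 measured genes in each array, as log2 signal minus the gene's mean over the 6 arrays, with Delta9 in orange and WT in blue and a marker shape per replicate number; lines part the roles. Delta9 replicate 3 was the lowest array for 20 of the 28 genes and WT replicate 3 the highest for 19.

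**Figure D2:**
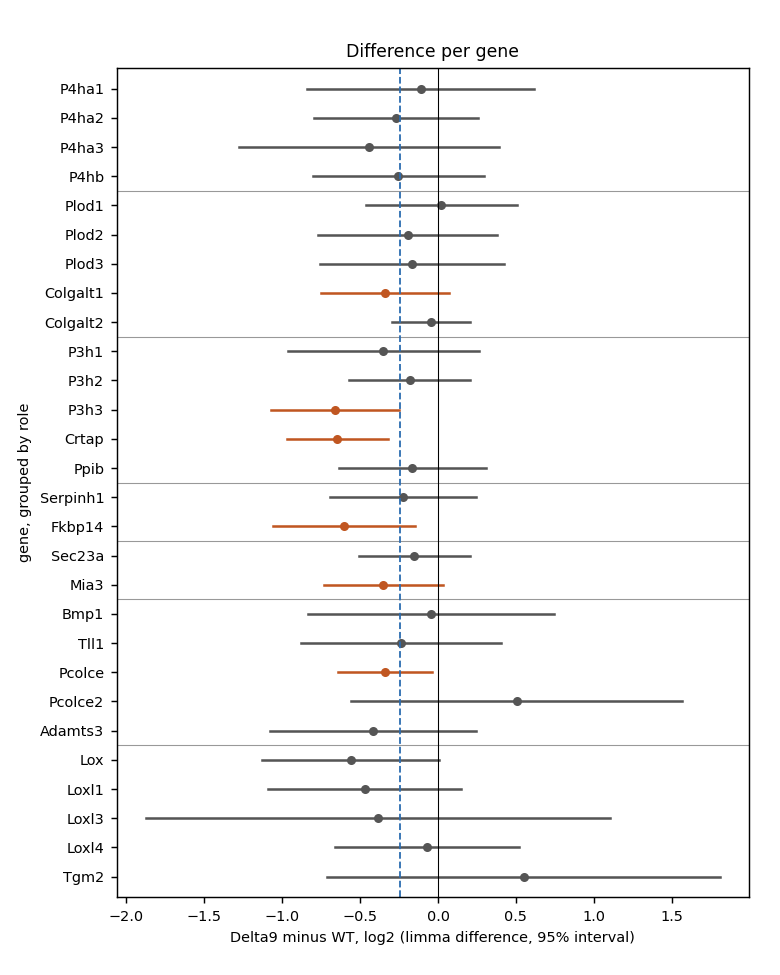
Difference of each gene, Delta9 minus WT in log2 units, as a point with its 95% interval from limma, in orange where the 2 groups did not overlap; the dashed line is the members' median of -0.25. The interval included 0 for 24 of the 28 genes and lay under 0 for Crtap, P3h3, Fkbp14 and Pcolce.

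The lower values were uneven between arrays. The median of the members' values, each taken relative to that gene's mean over the 6 arrays, was 0.04 log2 in Delta9 replicate 1, 0.06 in replicate 2 and -0.50 in replicate 3, whereas WT replicates 1, 2 and 3 stood at -0.18, 0.16 and 0.46. The 2 groups overlapped on this measure, since WT replicate 1 stood below Delta9 replicates 1 and 2. Delta9 replicate 3 was the lowest of all 6 arrays in 20 members, or 71.4%, against 25.1% of all genes, WT replicate 3 was the highest in 19, or 67.9%, against 27.2%, and WT replicate 1 was the lowest WT array in 23 members, or 82.1%, against 45.4%. Without Delta9 replicate 3 the members' median was -0.08 with 19 members lower, against 49.9% of all genes. Without WT replicate 3 it was -0.11 with 19 lower, against 48.8% of all genes. Without WT replicate 1 it was -0.38, against -0.04 over all genes, of which 57.9% were lower.

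Array measures also differed between the arrays, and they did not follow the members' values on every array. The poly-A transcripts that are spiked into the RNA before labelling averaged 5.20 log2 on Delta9 replicate 3 and 4.85 on WT replicate 1, against 5.64 to 6.10 on the other 4 arrays. Within those 4 arrays 23 members were lower, against 53.7% of all genes, with a median of -0.24. Between the remaining pair, Delta9 replicate 3 against WT replicate 1, 25 members were lower, against 50.2% of all genes. With this split as a block in the limma model, 11 members were lower and 1, Pcolce2, was higher at an unadjusted p under 0.05, against 9.04% and 9.01% of all genes; 0 passed the adjusted threshold, against 0.819% of all genes, the lowest being Fkbp14 at 0.0590 and Crtap at 0.0631. Over the alternatives run, the adjusted p of Fkbp14 ranged from 0.0590 to 0.675 and that of Crtap from 0.0612 to 0.607. The split was known from an earlier look at these data. WT replicate 3, the array with the highest members, was further the dimmest on the control probe sets for ribosomal RNA. It read 7.86 log2 there, where the others read 9.21 to 10.39. It also had the widest 3′ to 5′ difference of the beta-actin controls, 1.41 against 0.51 to 0.86. For the Gapdh controls its difference was 0.51, within the range of 0.23 to 0.57 of the others. The part of these measures in the result was not tested.

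Macrophage markers differed in the opposite direction. All 20 listed markers were measured and all 20 had higher means in Delta9, with a median difference of 1.06 and 0 past the adjusted threshold in limma (4 higher at an unadjusted p under 0.05, against 4.54% of all genes). The mean level of the list was 9.59 to 10.13 log2 in Delta9 and 7.54 to 9.71 in WT, and the defining markers Cd68 and Csf1r were well above the arrays' medians in both groups, with WT means of 9.60 and 10.42. WT replicate 3, the array with the highest members, was the lowest in macrophage markers, and Delta9 replicate 3, with the lowest members, was the highest. With the mean of these markers as a covariate the members' median difference was 0.04, against 0.02 over all genes, and 12 of the 28 were lower, against 46.1% of all genes. In bulk RNA, fewer cells of a type and less RNA per cell cannot be told apart.

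**Figure D3:**
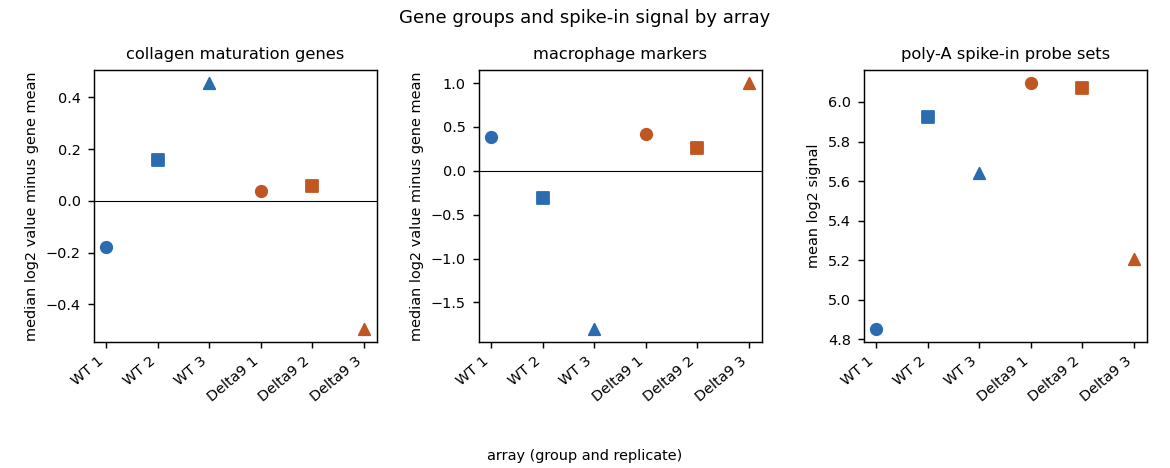
Per-array median of the 28 collagen maturation genes and of the 20 macrophage markers, both relative to each gene's mean over the 6 arrays in log2 units, and the mean log2 signal of the poly-A spike-in probe sets; WT is blue and Delta9 orange. WT replicate 3 was highest in the collagen maturation genes (0.46) and lowest in the macrophage markers (-1.81), and Delta9 replicate 3 the reverse (-0.50 and 1.01).

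The promoters of 20 of the 28 measured members are in the RefSeq table of GRCm38.p6, and the 250 bases before each start site were searched on both strands for ACGTG, the core letters bound by hypoxia-inducible factors among others, for GGGCGG, the letters of an Sp1 box, and for CCAAT, each counted on its own even where matches overlap. ACGTG stood in 9 of the 20 (45.0%), against 22.5% of the 14454 genes that were tested or listed here and have such a window. GGGCGG stood in 15 (75.0%, against 53.4%) and CCAAT in 7 (35.0%, against 39.4%). The 9 with ACGTG were Adamts3, Mia3, P3h1, P4ha1, P4ha2, P4hb, Plod3, Ppib and Serpinh1. Of the 6 members whose groups did not overlap, 1, Mia3, held ACGTG and 3 held GGGCGG. The windows of Crtap (chr9:114390713-114390962, minus strand), Mia3 (chr1:183369566-183369815, minus strand) and P4hb (chr11:120573254-120573503, minus strand) are shown to set the member of lowest p, which held none of these letters, beside 2 that held several. They are written 5′ to 3′ on the gene's strand, with matches in capitals; a match on the other strand appears as its reverse complement.
Crtap: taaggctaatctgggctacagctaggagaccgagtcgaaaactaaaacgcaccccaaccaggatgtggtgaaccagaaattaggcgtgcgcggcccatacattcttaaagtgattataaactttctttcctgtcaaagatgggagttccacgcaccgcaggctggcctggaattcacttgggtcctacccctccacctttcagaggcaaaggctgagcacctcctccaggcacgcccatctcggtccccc
Mia3: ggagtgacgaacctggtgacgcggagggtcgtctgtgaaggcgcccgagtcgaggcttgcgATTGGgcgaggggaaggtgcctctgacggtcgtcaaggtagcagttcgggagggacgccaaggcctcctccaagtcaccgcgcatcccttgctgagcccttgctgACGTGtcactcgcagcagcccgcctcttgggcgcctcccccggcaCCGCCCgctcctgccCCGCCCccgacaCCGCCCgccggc
P4hb: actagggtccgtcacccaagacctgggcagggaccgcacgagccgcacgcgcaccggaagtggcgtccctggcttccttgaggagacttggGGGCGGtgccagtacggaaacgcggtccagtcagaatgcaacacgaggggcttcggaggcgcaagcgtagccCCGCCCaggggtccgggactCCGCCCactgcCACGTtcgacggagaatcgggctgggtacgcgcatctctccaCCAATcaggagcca

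The prolyl 4-hydroxylase subunits all had lower means, but WT and Delta9 overlapped in each of the 4 genes. P4ha3, a catalytic alpha subunit and the one of lowest p, read 6.76, 6.76 and 5.82 log2 in Delta9 and 6.29, 7.03 and 7.35 in WT. The values overlapped, with Delta9 replicate 3 lowest and WT replicate 1 below the other 2 Delta9 samples. Its difference was -0.44 (SE 0.35, adjusted p 0.694); it was -0.13 without Delta9 replicate 3, -0.74 without WT replicate 1 and -0.21 without WT replicate 3. Adding the macrophage covariate gave 0.13. The other alpha subunits P4ha1 and P4ha2 differed by -0.11 (95% interval -0.84 to 0.62) and -0.27 (-0.80 to 0.26). P4hb, the beta subunit that is also protein disulfide isomerase, differed by -0.25 (-0.80 to 0.29).

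On the probe sets used, the lysyl hydroxylases differed by less than their standard errors. Plod1 differed by 0.02 (SE 0.21) and Plod2, which hydroxylates the telopeptide lysines used in crosslinks, by -0.20 (SE 0.24). Plod3, which also adds glucose, differed by -0.16 (SE 0.25). The second probe set of Plod2, 1416686_at, averaged 7.86 log2 in WT and differed by more, at -0.47 (SE 0.25). That of Plod1 differed by -0.15 (SE 0.21). The collagen galactosyltransferase Colgalt1 read 8.91, 9.41 and 9.52 in Delta9 and 9.58, 9.72 and 9.55 in WT. The groups did not overlap, but the gap between the highest Delta9 and the lowest WT value was 0.04 log2, and Delta9 replicate 1 alone stood far below. Its difference was -0.34 (SE 0.18, adjusted p 0.539), or -0.16 without Delta9 replicate 1, and its dimmer probe set differed by -0.07. Colgalt2, the paralogue, had means of 2.93 and 2.97 log2 in Delta9 and WT, below the arrays' medians of 3.36 to 3.43, and differed by -0.04 (SE 0.11).

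The prolyl 3-hydroxylation genes held the 2 members of lowest p. Crtap, the non-enzymatic subunit that joins prolyl 3-hydroxylase 1 and cyclophilin B in the complex that modifies type I collagen, read 8.99, 9.20 and 9.12 in Delta9 and 9.59, 9.69 and 9.97 in WT. The groups were 0.39 log2 apart, and the Delta9 samples lay close together. Its mean was 1.56-fold lower (difference -0.65, SE 0.14, 95% interval -0.97 to -0.32), with an adjusted p of 0.222 in limma, which misses the threshold. P3h3, a prolyl 3-hydroxylase family member that works with lysyl hydroxylase 1, read 7.24, 7.33 and 7.23 in Delta9 and 7.65, 7.89 and 8.24 in WT. Its groups were 0.33 apart, and its mean was 1.58-fold lower (difference -0.66, SE 0.17, adjusted p 0.282). With the macrophage covariate the differences were -0.47 (SE 0.14, adjusted p 0.558) for Crtap and -0.38 (SE 0.14, adjusted p 0.569) for P3h3.

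The partners of Crtap in the complex had smaller differences. P3h1, the enzyme, differed by -0.35 (SE 0.26, 95% interval -0.97 to 0.26), and Ppib, cyclophilin B, by -0.17 (SE 0.20, -0.64 to 0.31); the differences between Crtap and its partners were not tested. P3h2, the prolyl 3-hydroxylase of basement membrane collagen, differed by -0.18 (SE 0.16).

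Of the procollagen chaperones, Fkbp14, a peptidyl-prolyl isomerase of the endoplasmic reticulum, read 8.14, 8.12 and 7.67 in Delta9 and 8.32, 8.57 and 8.84 in WT. The groups were 0.18 apart, with Delta9 replicate 3 lowest and WT replicate 3 highest. The difference was -0.60 (SE 0.19, adjusted p 0.365), a 1.52-fold lower level, and was -0.58 in the 4 arrays with more spike-in signal and -0.65 in the remaining pair. It was -0.31 (SE 0.18) with the macrophage covariate and -0.23 (SE 0.13) with the mean of its probe sets. Its second probe set, which was dim at 2.78 in WT, differed by 0.15. Serpinh1, the collagen chaperone Hsp47, differed by -0.23 (SE 0.20).

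Both export genes had lower means on the probe set used, and neither passed. Mia3, also called TANGO1, which packs procollagen at the exit sites of the endoplasmic reticulum, read 7.40, 7.36 and 7.40 in Delta9 and 7.57, 7.61 and 8.04 in WT. The Delta9 values lay close together and at least 0.17 below the lowest WT value, while WT replicate 3 stood above the rest. Its difference was -0.35 (SE 0.16, adjusted p 0.495). Its 4 probe sets disagreed: 1434698_at differed by -0.27 (SE 0.18), whereas 1459070_at differed by 0.22 (SE 0.16) and 1459984_at by 1.33 (SE 0.52), so the mean of the probe sets gave 0.23. The probe set used differed by -0.12 with the macrophage covariate and by -0.20 without WT replicate 3. Sec23a, a subunit of the COPII vesicle coat, differed by -0.15 (SE 0.15).

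**Figure D4:**
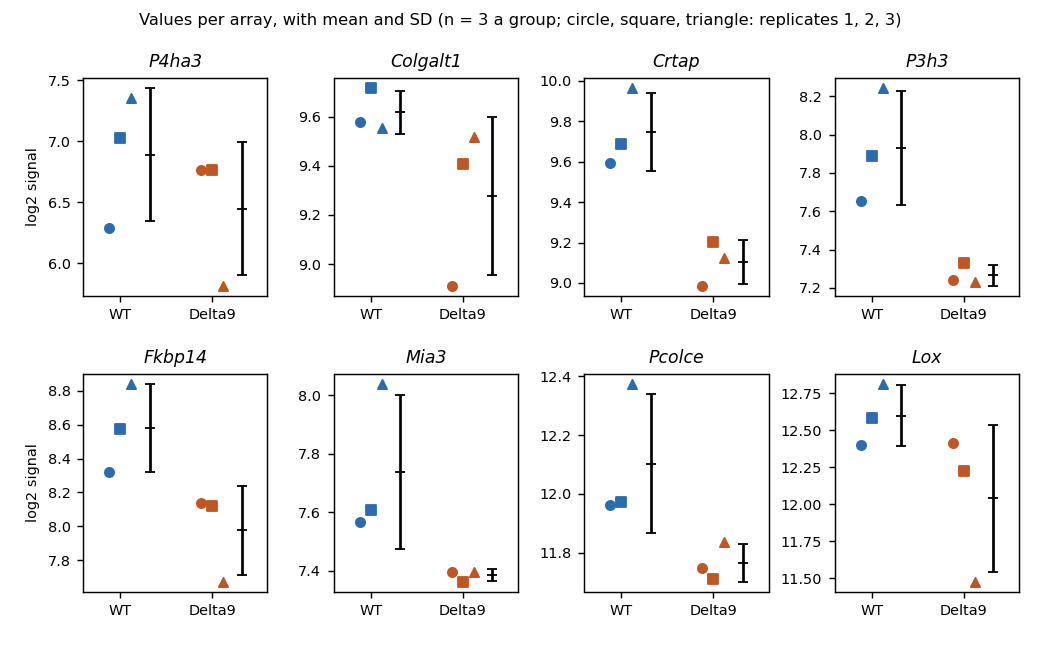
Log2 signal per array of the members with an unadjusted p under 0.05 and of the member of lowest p in each role, with the mean and SD of each group beside the points (n = 3). Crtap, P3h3, Fkbp14, Mia3, Pcolce and Colgalt1 show no overlap between WT and Delta9, while P4ha3 and Lox overlap.

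Among the genes of propeptide cleavage, Pcolce, the enhancer that speeds removal of the C-terminal propeptide, read 11.75, 11.71 and 11.84 in Delta9 and 11.96, 11.97 and 12.38 in WT. The groups were 0.13 apart. The difference was -0.34 (SE 0.13, adjusted p 0.426), and its second probe set differed by -0.51 (SE 0.15) with no overlap either. The first was -0.15 with the macrophage covariate and -0.20 without WT replicate 3. Bmp1, the C-proteinase that Pcolce assists, differed by only -0.04 (SE 0.34, 95% interval -0.83 to 0.75). Tll1, a relative of Bmp1, and Adamts3, an N-proteinase, were dim, with WT means of 2.68 and 3.05 log2, and differed by -0.24 (SE 0.27) and -0.42 (SE 0.28).

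Pcolce2, the second enhancer, had the opposite sign to Pcolce. It read 5.31, 5.46 and 3.89 in Delta9 and 3.82, 4.80 and 4.53 in WT. Delta9 replicates 1 and 2 stood above all WT samples and Delta9 replicate 3 beside the lowest of them, so the groups overlapped. The difference was 0.50 (SE 0.45, adjusted p 0.726), and with 1 sample left out it ran from 0.22 without Delta9 replicate 2 to 1.00 without Delta9 replicate 3. Adding the macrophage covariate gave 0.95, and the difference was 0.72 in the 4 arrays with more spike-in signal. Pcolce2, Tgm2 and Plod1 were the 3 members with a higher mean in Delta9 and are set out for that reason.

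The lysyl oxidases, which deaminate lysines to start the crosslinks, had lower means in Delta9, but none passed and all overlapped between the groups on the probe set used. Lox read 12.41, 12.23 and 11.48 in Delta9 and 12.40, 12.58 and 12.81 in WT. The groups overlapped by a narrow margin, since Delta9 replicate 1 stood just above WT replicate 1, and Delta9 replicate 3 was the lowest. The difference was -0.56 (SE 0.24, adjusted p 0.472); it was -0.28 (SE 0.13) without Delta9 replicate 3, and adding the macrophage covariate gave -0.27 (SE 0.28). On its further probe sets, the differences were -0.80 (SE 0.28) for 1448228_at and -0.45 (SE 0.11) for 1437903_at, which was dim, both without overlap between the groups. Loxl1, which acts on elastic fibres as well, differed by -0.47 (SE 0.26), or by -0.20 without Delta9 replicate 3 and -0.09 when that covariate was added, and Loxl4 by -0.07 (SE 0.25).

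The most variable members were Loxl3 and Tgm2. Loxl3, another lysyl oxidase, read 8.32, 8.35 and 6.27 in Delta9 and 7.13, 8.25 and 8.72 in WT. Delta9 replicate 3 and WT replicate 1 stood below the other 4 arrays, and the difference was -0.39 (SE 0.63); without Delta9 replicate 3 it was 0.30. Tgm2, a transglutaminase that forms glutamyl-lysine crosslinks and is also made by macrophages, read 9.02, 9.32 and 7.19 in Delta9 and 7.53, 8.11 and 8.25 in WT. It was higher than every WT sample in Delta9 replicates 1 and 2 and lower in replicate 3. The difference was 0.55 (SE 0.54, adjusted p 0.749), and it was 0.99 (SE 0.14) in the 4 arrays with more spike-in signal and -0.34 in the remaining pair. With 1 sample left out it ran from 0.15 without Delta9 replicate 2 to 1.21 without Delta9 replicate 3, and adding the macrophage covariate gave 1.11. Of its 5 further probe sets, 4 were higher and the dimmest, 1438942_x_at, differed by -0.06.

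Over all 52 probe sets of the members, 40, or 76.9%, had lower means in Delta9, against 54.3% of all 45037 probe sets, and 0 passed an adjusted p of 0.05 in limma, against 0.0355% of all. Of the 24 further probe sets, 7 had the opposite sign to the one used; these belong to Bmp1, Fkbp14, Mia3, P4ha1, Plod1 and Tgm2, of which Mia3 has 2.

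The fibril-forming collagens, the substrates of these enzymes, had lower means in 10 of 11 genes, against 53.2% of all genes, with a median of -0.23. In limma 0 passed the adjusted threshold, and 3 were lower at an unadjusted p under 0.05, against 6.06% of all genes. Col11a1, a minor chain that sets fibril diameter, averaged 7.33 ± 0.11 log2 in Delta9 against 8.37 ± 0.12 in WT (SD, n = 3), a difference of -1.04 (SE 0.13, adjusted p 0.0679), and Col1a1 differed by -0.26 (SE 0.08). Of 30 other genes of collagen biosynthesis, 22 had lower means, with a median of -0.20 and 0 past the threshold. At an unadjusted p under 0.05 in limma, 3 were lower and 1 higher, against 6.06% and 4.54% of all genes. Fkbp9, another isomerase of the endoplasmic reticulum, differed by -0.52 (SE 0.14, adjusted p 0.279). F13a1, the transglutaminase factor XIII A chain, which macrophages also make, differed by 3.38 (SE 1.04, adjusted p 0.343). Of 19 listed regulators of collagen assembly 17 were measured and 14 had lower means, with a median of -0.35. Differences in this list ran from -4.32 to 0.13. In limma 5 were lower and 0 higher at an unadjusted p under 0.05, against 6.06% and 4.54% of all genes. In 6 every Delta9 value lay under every WT value, against 9.99% of all genes. The fibril-binding proteoglycan Fmod passed the adjusted threshold (difference -2.16, SE 0.12, adjusted p 0.00337), as did 0.0605% of all genes.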

How the data were processed

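Total RNA of 6 samples was extracted with Trizol, biotin-labelled by the manufacturer's kit and hybridised to 1 Affymetrix array each, per the labels' protocols. The deposited values are log2 probe set signals of 45101 probe sets, on a near-common scale when deposited by the authors; that the scale is log2 was inferred from their range of 1.49 to 13.61, and how they were summarised and normalized is not given in the sources used here. No detection calls come with them, and 3 arrays a group limit the precision.

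The values were used as they stand. The 64 control probe sets were left out, and genes were named by the array's platform annotation, in which 34945 probe sets had 1 symbol, 932 several and 9160 none; 34741 matched a RefSeq table of GRCm38.p6 and 0 symbols were updated. Delta9 was compared with WT for 18193 genes in limma 3.58.1 under R 4.3.3 (lmFit, then eBayes with a variance trend), with Benjamini-Hochberg adjustment over all genes and a threshold of 0.05. The script was tested on simulated data with 200 changed genes. Noise was drawn independently for each gene and array, so deviations that genes share on an array were not simulated. At the adjusted threshold the fit recovered 45% of changes of 1 log2 and 90% of changes of 2 log2, and 2.17% of its calls were false. The members' differences, from -0.66 to 0.55, were smaller than either size, and changes that small were not simulated. SE is limma's moderated standard error. No set test was made.

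The members, the pathway and marker lists and the alternatives were chosen with earlier results of these data known. Values in every sample are given for members with an unadjusted p under 0.05 and for the member of lowest p in each role; from a pathway list, genes past the threshold or otherwise the 2 of lowest p are named. Pcolce2, Loxl3 and Tgm2 were added after their values were seen. Alternatives were other normalization, filters, probe set choices, variance settings, the replicate number as a block, the spike-in split, a macrophage covariate, a threshold of 0.1 and leaving out each sample. Figures were drawn with matplotlib 3.10.9.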

Additional observations from a re-analysis of the deposited data

How the results depend on the processing

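No member passed the adjusted p of 0.05 in limma under any of 17 alternatives, the lowest adjusted p being 0.0590. At a threshold of 0.1 on limma's adjusted p, 0 passed in the fit as reported. With the spike-in split as a block 5 passed (Fkbp14 0.0590, Crtap 0.0631, P3h3 0.0787, Loxl1 0.0841 and Lox 0.0969). With array weights Crtap (0.0612) and P3h3 (0.0751) passed, and in the 4 arrays with more spike-in signal Tgm2 did (0.0831). The share of all genes under 0.1 in these 3 fits was not counted. At 0.05 they called 0.819%, 0.764% and 0.335% of all genes, against 0.0605% in the fit as reported. The median of -0.25 changed sign with the macrophage covariate, where it was 0.036 and 12 members were lower; the cause was not tested. It was closer to 0 with array weights, at -0.16 with 20 lower, against 51% of all genes. The same held without Delta9 replicate 3, at -0.08 with 19 lower, against 49.9%, and without WT replicate 3, at -0.11 with 19 lower, against 48.8%. Among the 28 or fewer members measured, the other settings gave 22 to 26 lower and medians of -0.38 to -0.22. In those settings 49.9% to 57.9% of all genes were lower. Of 473 member values under alternatives, 43 had the opposite sign, in 17 members. With the covariate these were P4ha1 0.24, P4ha2 0.11, P4ha3 0.13, P4hb 0.11, Plod3 0.22, P3h1 0.037, Ppib 0.21, Serpinh1 0.013, Sec23a 0.035, Bmp1 0.54, Tll1 0.27, Loxl3 0.55 and Loxl4 0.24. With array weights they were P4ha1 0.023, Plod3 0.0067, Colgalt2 0.036, Bmp1 0.16 and Loxl4 0.040, and with only the 4 arrays with more spike-in signal P4ha1 0.051 and Colgalt2 0.087. With the mean of the probe sets they were Plod1 -0.066, Mia3 0.23 and Bmp1 0.050, without the _x_at and _s_at types Mia3 1.33, and with quantile normalization Plod1 -0.0090. Over the 6 fits that leave out a sample, Plod1 ran from -0.13 to 0.19, P4ha1 from -0.37 to 0.22, Plod3 from -0.33 to 0.069, Colgalt2 from -0.11 to 0.037, Bmp1 from -0.31 to 0.24, Loxl3 from -0.84 to 0.30, Loxl4 from -0.31 to 0.092, Plod2 from -0.40 to 0.0075, Ppib from -0.31 to 0.030 and Tll1 from -0.48 to 0.014. The replicate numbers alone do not show whether samples were paired. Deviations of same-numbered samples from their group means correlated at -0.40, 0.17 and -0.43. The highest correlation was 0.59, between Delta9 replicate 3 and WT replicate 1. Such deviations sum to 0 over the 3 samples of a group, so these values cannot decide whether samples were paired. With the replicate number as a block 0 members and 0 genes passed, and the median was -0.25. In that fit 4 members were lower at an unadjusted p under 0.05 in limma, and the share of all genes at that level was not counted.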

Other observations

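General folding genes of the endoplasmic reticulum, which serve all secreted proteins, were lower in 11 of 16 genes, against 53.2% of all genes. Their median difference was -0.13, and 0 passed the adjusted p of 0.05 in limma, against 0.0605% of all genes. At an unadjusted p under 0.05, 2 were lower and 1 higher, against 6.06% and 4.54% of all genes. Hyou1, a large chaperone of the Hsp70 type, differed by -0.38 (SE 0.15) and Ero1b, an oxidase that recharges disulfide isomerases, by 0.44 (SE 0.17), with adjusted p of 0.433 and 0.436.

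Endothelial markers were higher in 9 of 10 genes (median 0.18) and epithelial markers lower in 9 of 10 (median -0.12). Skeletal muscle markers were lower in 7 of 10 (median -0.24) and adipocyte markers higher in 5 of 6 (median 0.30), of which Cidec by only 0.00025. In limma 0 passed the threshold. At an unadjusted p under 0.05, 0 endothelial markers, 1 epithelial (lower) and 1 muscle marker (lower) were called. The 2 adipocyte markers called went opposite ways, Fabp4 by 1.44 (SE 0.29) and Lep, dim at 2.41 in WT, by -0.21 (SE 0.07). Of all genes, 6.06% were called lower and 4.54% higher.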
